A study of Mus musculus with 8 samples.

Results

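The 10 genes described here (Adipoq, Lep, Retn, Plin1, Plin4, Cidec, Lpl, Cd36, Fabp4 and Car3) are known for their high expression in fat cells. Their levels come from whole pieces of colon, taken at its most distal end from BALB/c males of 5 weeks, on Affymetrix MoGene 1.0 ST arrays. BALB/c is an inbred mouse strain. A gene was kept where a probe set of the value table carried its symbol and no other, and all 10 genes were found, each with 1 probe set, among 18154 such probe sets of 16645 genes. In the 4 AA mice appendicitis had been induced and the appendix removed 1 week later, and the 4 SS mice had 2 sham operations 1 week apart. Both groups therefore had surgery on 2 occasions, and no unoperated mice were analysed here. The labels put replicates 1 and 2 of each group (AA1, AA2, SS1, SS2) in batch 1 and replicates 3 and 4 (AA3, AA4, SS3, SS4) in batch 2, and do not say what a batch is. Each array held RNA of an individual colon sample. The labels name no animals, and a p-value covers only the spread among the 8 samples.

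A white fat cell stores triglyceride in a large lipid droplet. It takes up fatty acids that lipoprotein lipase frees from circulating lipoproteins, coats the droplet with perilipins, and secretes hormones called adipokines. The transcription factors PPAR gamma and C/EBP alpha drive this program during fat cell differentiation. Fat lies along the outer side of the gut in the mesentery, and how much of it a dissected piece of colon carries can vary. In bulk RNA, fewer cells of a type and less RNA per cell cannot be told apart.

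Values are log2 expression values, on which a difference of 1 is a doubling. The array medians ran from 7.09 to 7.16. The deposited values had equal means in both batches for every tested probe set, with a largest difference of 6e-05, so a level in one batch cannot be set against a level in the other. Where all 8 arrays are ranked below, the ranks are of these batch-centred values. With such centring, a high value in 1 array also sets the other 3 arrays of its batch lower. No detection calls or background signals were used here, so whether a low value lies above background was not tested.

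The 10 genes stood apart from most of the array by how much they varied between samples, and 1 array, SS1, was the highest of the 4 arrays of batch 1 in all 10 of them. Over all tested probe sets SS1 was the highest of batch 1 in 25.9%. In the batch-centred values it was also the highest of the 8 arrays in all 10, against 16.6% of all probe sets. Car3 had an SD of 1.66 over the 8 arrays, Adipoq 1.49, Fabp4 1.34, Lpl 1.17, Retn 1.05 and Cd36 1.02, against a median SD of 0.149 over all tested probe sets. Their SDs ranked at percentiles 99.69 to 99.97 of the 18154 probe sets. Cidec (0.60), Plin1 (0.52) and Plin4 (0.36) ranked at 98.60, 97.93 and 94.47. Lep, with an SD of 0.25, ranked at 85.77.

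**Figure D1:**
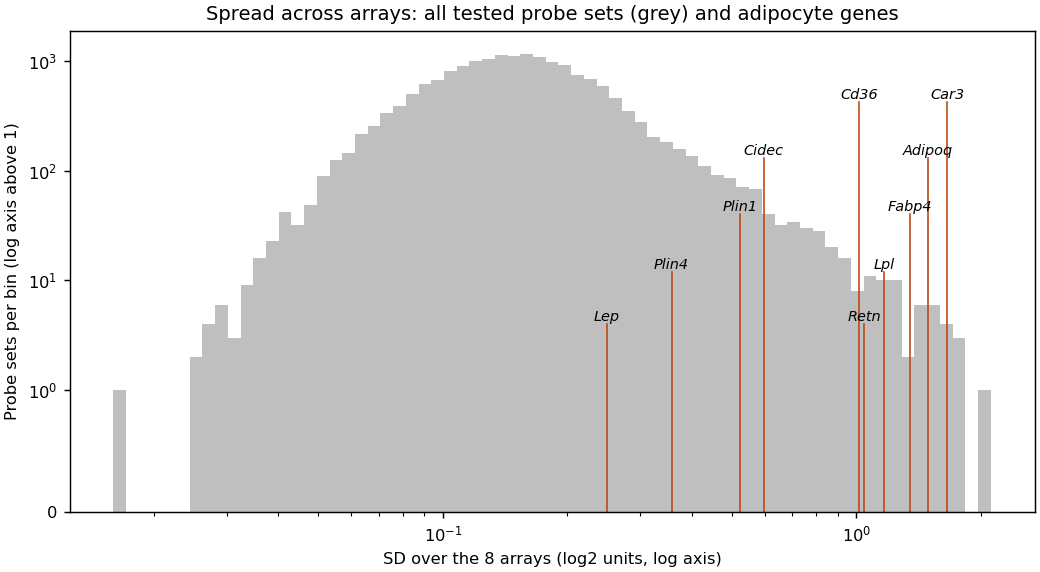
Histogram of the SD over the 8 arrays (x axis, log2 units on a log axis) for all 18154 tested probe sets in grey, with the number of probe sets per bin on the y axis (log above 1) and a vertical line for each adipocyte gene, whose height has no meaning. Car3, at 1.66, has the largest SD of the 10 genes and Lep, at 0.25, the smallest.

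Adipoq encodes adiponectin, a hormone that raises insulin sensitivity and is made almost only by fat cells. In batch 1 Adipoq stood at 6.49 in AA1, 5.51 in AA2, 10.04 in SS1 and 7.16 in SS2, and in batch 2 at 8.34 in AA3, 5.802 in AA4, 8.10 in SS3 and 6.96 in SS4. Both AA arrays of batch 1 lay below both SS arrays, whereas in batch 2 the AA arrays were the highest and the lowest. The AA mean was 6.54 ± 1.27 (SD, n = 4) and the SS mean 8.06 ± 1.41 (SD, n = 4). The difference of -1.53 ± 0.77 (SE) corresponds to a 2.89-fold lower mean in AA, with a 95% interval of -3.26 to 0.20 and an adjusted p of 0.669 (unadjusted 0.0772) in limma.

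Retn encodes resistin, a cysteine-rich hormone of mouse fat cells. Retn stood at 6.003 in AA1, 5.92 in AA2, 9.11 in SS1 and 6.69 in SS2, and at 7.36 in AA3, 6.26 in AA4, 7.43 in SS3 and 6.66 in SS4. The order of the arrays within each batch was close to that of Adipoq, with AA3 and SS3 the upper pair of batch 2. The difference was -1.09 ± 0.54 (SE), from an AA mean of 6.39 ± 0.67 (SD, n = 4) and an SS mean of 7.47 ± 1.15 (SD, n = 4), with an adjusted p of 0.662 in limma. Lep encodes leptin, the hormone that signals fat stores to the brain. Lep was at 4.41 in AA1, 4.39 in AA2, 5.17 in SS1 and 4.43 in SS2, and at 4.58, 4.63, 4.59 and 4.60 in AA3, AA4, SS3 and SS4. SS1 alone stood out, and the other 3 arrays of batch 1 spanned 0.04 and the 4 arrays of batch 2 spanned 0.06. The mean difference for Lep was -0.19 ± 0.16 (SE), with an adjusted p of 0.805 in limma.

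Among proteins of the lipid droplet, Plin1 encodes perilipin 1, which coats the droplet and controls access of lipases. Plin1 stood at 6.26 in AA1, 6.12 in AA2, 7.85 in SS1 and 6.59 in SS2, and at 6.79 in AA3, 6.58 in AA4, 6.87 in SS3 and 6.57 in SS4. Apart from SS1 the arrays of a batch differed by less than 0.5, and in batch 2 by 0.29. Cidec, which promotes fusion of droplets into a large one, stood at 6.24 in AA1, 7.14 in AA2, 8.27 in SS1 and 6.99 in SS2, and at 7.44, 6.74, 7.48 and 6.98 in AA3, AA4, SS3 and SS4. Here AA1, not AA2, was the lowest array of batch 1, and SS1 was again the highest. Plin4, perilipin 4, which coats nascent droplets, stood at 6.58, 6.61, 7.69 and 6.63 in AA1, AA2, SS1 and SS2 and at 6.87, 6.87, 6.90 and 6.87 in AA3, AA4, SS3 and SS4. As in Lep, nearly all its variation was the difference between SS1 and the rest of batch 1, and the 4 arrays of batch 2 spanned 0.03. The differences between group means were -0.53 ± 0.28 (SE) for Plin1, -0.54 ± 0.33 (SE) for Cidec and -0.29 ± 0.21 (SE) for Plin4, with adjusted p-values of 0.689, 0.724 and 0.781 in limma.

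The genes of fatty acid uptake and transport varied more. Lpl encodes lipoprotein lipase, which frees fatty acids at the capillary wall and is also made by muscle and macrophages. Lpl stood at 6.28 in AA1, 7.08 in AA2, 10.02 in SS1 and 6.97 in SS2, and at 8.004 in AA3, 6.97 in AA4, 8.30 in SS3 and 7.10 in SS4. SS1 lay 3.05 above SS2, an 8.27-fold difference between 2 sham-operated samples, while SS2 lay between AA1 and AA2. Cd36 encodes a fatty acid translocase that endothelium and macrophages also use. Cd36 stood at 7.45, 6.76, 9.92 and 7.61 in AA1, AA2, SS1 and SS2 and at 8.85, 7.21, 8.15 and 7.53 in AA3, AA4, SS3 and SS4. Fabp4 encodes the fatty acid-binding protein of fat cells, also made by endothelium and macrophages. Fabp4 stood at 7.31, 6.51, 10.29 and 8.02 in AA1, AA2, SS1 and SS2 and at 9.48, 6.73, 8.64 and 7.28 in AA3, AA4, SS3 and SS4. In both Cd36 and Fabp4 the highest array of batch 2 was an AA array, AA3, and the lowest another, AA4. The differences between group means were -1.01 ± 0.64 (SE) for Lpl, -0.73 ± 0.58 (SE) for Cd36 and -1.05 ± 0.76 (SE) for Fabp4, with adjusted p-values of 0.738, 0.798 and 0.780 in limma.

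Car3 encodes carbonic anhydrase 3, an abundant cytosolic protein of fat cells and skeletal muscle. Car3 stood at 8.66 in AA1, 7.96 in AA2, 11.84 in SS1 and 9.69 in SS2, and at 11.05 in AA3, 6.93 in AA4, 10.79 in SS3 and 9.37 in SS4. The 2 AA arrays of batch 2 differed by 4.13, or 17.4-fold, the widest gap between arrays of one group and batch among the 10 genes. Car3 also had the largest mean difference, between 8.65 ± 1.75 (SD, n = 4) for AA and 10.42 ± 1.12 (SD, n = 4) for SS. That difference of -1.77 ± 0.84 (SE) had a 95% interval of -3.67 to 0.13 and an adjusted p of 0.651 (unadjusted 0.0645) in limma. Of 11 measured genes of striated muscle, which also uses Car3, 3 (27.3%) were lower in AA, beside 47.8% of all genes. Their median difference was 0.14, with list means of 6.27 to 6.39 in AA and 6.15 to 6.31 in SS.

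**Figure D2:**
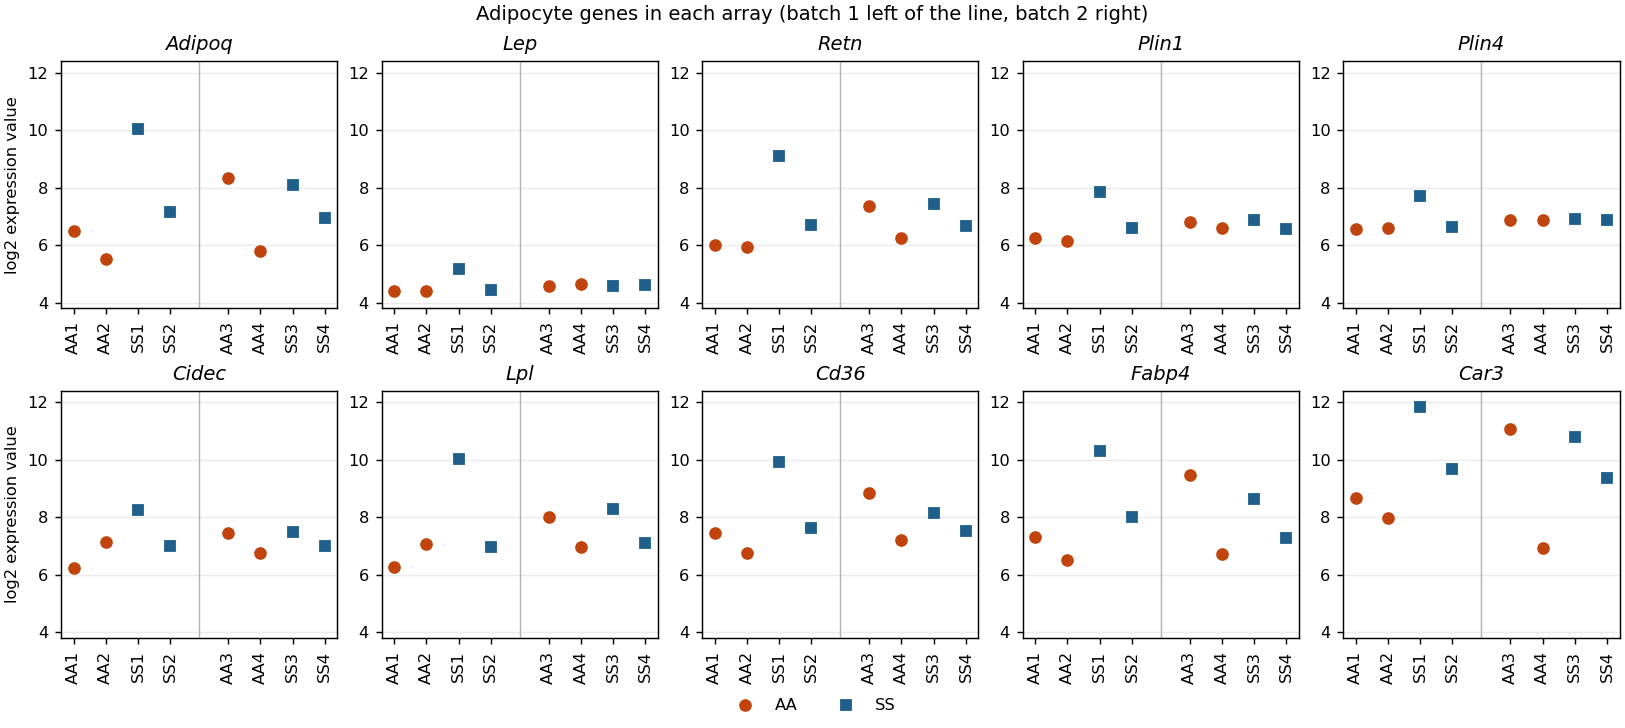
Log2 expression value (y axis) of each adipocyte gene in each of the 8 arrays (x axis), with AA as circles and SS as squares, batch 1 left of the grey line and batch 2 right of it. SS1 is the highest array in all 10 panels, and AA3 and SS3 lie above AA4 and SS4 in most panels of batch 2.

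All 10 genes had a lower mean in AA than in SS, and none passed the test. The mean was lower in AA in 49.0% of all tested probe sets. With 1 probe set per gene it was lower in 47.8% and higher in 52.2% of genes. By limma over 18154 probe sets, 0 of the 10 had an adjusted p under 0.05, as did 0.00% of all probe sets, and 0 of the 10 had an unadjusted p under 0.05, against 8.08% of all probe sets (2.70% lower and 5.38% higher). The 10 differences ran from -1.77 to -0.19 with a median of -0.87, beside a median of 0.01 over all 16645 genes. For 5 of the 10 (Car3, Adipoq, Retn, Fabp4 and Lpl) the mean was lower by more than 1, as it was for 0.0881% of all probe sets. In 0 of the 10 did every AA array lie below every SS array in the batch-centred values, which held for 2.18% of all probe sets.

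In some lists of markers of other cell types, too, most genes had a mean difference of one sign. Of the fibroblast and matrix list 14 of 14 were higher in AA and 12 had an unadjusted p under 0.05 in limma, among them Col1a1 (0.77 ± 0.17 SE), Col1a2 (0.79 ± 0.17 SE), Col3a1 (0.73 ± 0.16 SE) and Lum (0.76 ± 0.16 SE). Their list means ran from 10.17 to 10.41 in AA and from 9.39 to 10.07 in SS. Smooth muscle genes were higher in 14 of 14, with 7 at that threshold, among them Cnn1 (0.64 ± 0.18 SE) and Hspb7 (0.59 ± 0.18 SE), and list means of 10.01 to 10.69 in AA and 9.82 to 10.27 in SS. Mesothelial genes were higher in 11 of 12, with 7 at that threshold, among them Upk1b (1.46 ± 0.49 SE) and Ildr2 (0.36 ± 0.10 SE), and list means of 7.64 to 8.80 in AA and 6.78 to 8.02 in SS. B cell and follicle genes lay the other way, 9 of 10 lower with 7 at that threshold, among them Ms4a1 (-1.18 ± 0.23 SE) and Cr2 (-1.04 ± 0.20 SE), and list means of 5.55 to 6.11 in AA and 6.21 to 6.60 in SS. Beside these counts 52.2% of all genes were higher and 47.8% lower in AA. At an unadjusted p under 0.05 in limma 5.67% of all genes were higher and 2.29% lower, and no gene passed the adjusted threshold. The median difference of the mesothelial list was 0.087 in batch 1 and 1.497 in batch 2, so most of it lay in batch 2. In the same order the medians were 0.541 and 0.785 for fibroblasts, 0.544 and 0.208 for smooth muscle and -0.645 and -0.131 for B cells. A term for the difference between batches had an adjusted p under 0.05 in limma for no probe set. The median correlation with the mean of the 10 adipocyte genes was -0.02 for the fibroblast list, -0.52 for smooth muscle, 0.22 for mesothelium and 0.59 for B cells. Without SS1 these medians were -0.182, -0.554, 0.177 and 0.295. The part of these cells in the adipocyte genes' difference was not tested.

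The difference was wider in batch 1, though the batches were not shown to differ. Within batch 1 all 10 genes were lower in AA, with differences of -2.60 to -0.40 (median -1.74), where 45.3% of probe sets were lower. Within batch 2 the median was -0.09 and 7 of the 10 were lower, where 50.1% of probe sets were. There Fabp4 (0.14), Cd36 (0.19) and Lep (0.01) were higher in AA, and Car3 was the furthest below, at -1.09. The difference between the batches was itself tested as a group by batch term in limma. Its unadjusted p-values ran from 0.0714 for Plin1 to 0.451 for Car3 and 0 of the 10 passed at an adjusted p under 0.05 (0.535 to 0.749), with 0.00% of all probe sets called and 9.46% at an unadjusted p under 0.05.

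The size of the difference moved with SS1. Without SS1 all 10 genes still had a lower mean in AA, where 8375 of all 16645 genes did. But the median difference of the 10 was -0.22 in place of -0.87, and their differences ran from -1.21 for Car3 to -0.0032 for Lep. Without AA3 the median was -1.31 and 6 of the 10 had an unadjusted p under 0.05, with 0 past the adjusted threshold (smallest adjusted p = 0.2998 in limma). At that unadjusted threshold 468 of all 18154 probe sets were lower and 998 higher without AA3. SS1 and AA3 thus pulled in opposite directions, and without both the median was -0.54. After both were left out, Car3 (-2.27), Adipoq (-1.44) and Fabp4 (-1.17) had the 3 largest differences and Lep stood at 0.01.

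**Figure D3:**
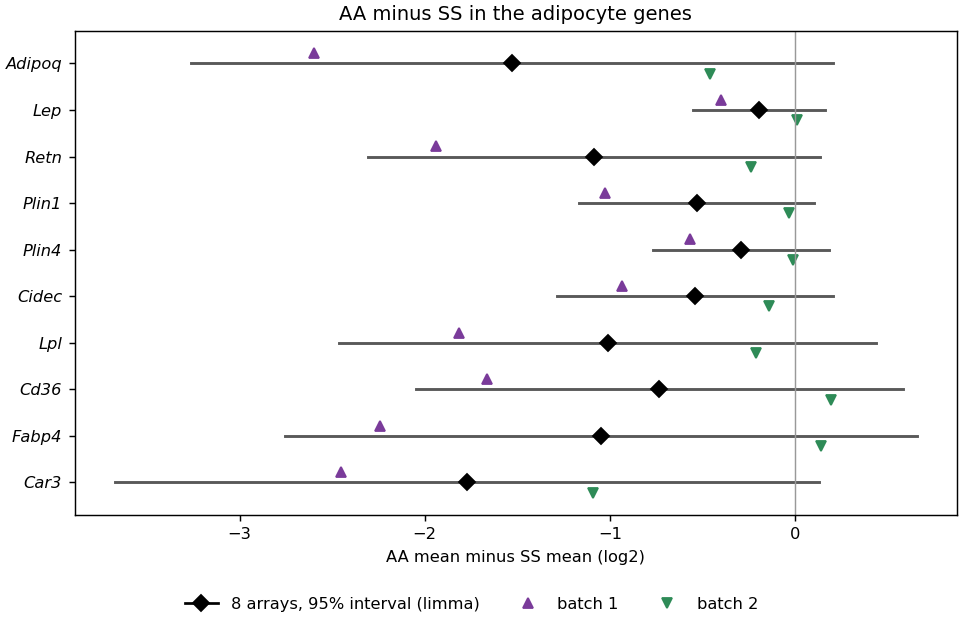
AA mean minus SS mean on the log2 scale (x axis) for each adipocyte gene, with black diamonds and lines for all 8 arrays and their 95% intervals in limma, upward triangles for batch 1 and downward triangles for batch 2. Every 95% interval includes 0, and the batch 1 differences (-2.60 to -0.40) all lie left of the batch 2 differences of the same gene.

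The genes varied together across the arrays. Over the 8 arrays the 45 pairs of genes had Pearson correlations of 0.564 to 0.996 with a median of 0.889, and Spearman correlations of 0.286 to 1.00 with a median of 0.786. Adipoq and Cd36 ranked the 8 arrays in the same order, with r = 0.976 and rho = 1.00 (exact two-sided permutation p = 2.48e-05 and 4.96e-05, adjusted over 45 pairs 0.000744 and 0.00223). Adipoq and Fabp4 had r = 0.979 and rho = 0.976 (exact permutation p = 4.96e-05 and 0.000397). The exact permutation p was under 0.05 after adjustment over the 45 pairs for 43 Pearson and 21 Spearman correlations. With pairings permuted within batches alone, a test that fits the centred values and cannot give a p below 0.00174, 26 of the 45 Pearson correlations had an adjusted p under 0.05. The genes were put together as fat cell genes with earlier results known, so these correlations describe them and are no separate evidence.

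Leaving out SS1 lowered these correlations. With the 2 arrays farthest from the first gene's median left out, which always included SS1, the 45 correlations ran from -0.04 to 0.98 with a median of 0.753. Without SS1 alone, and with batch means removed again over the other 7 arrays, their median was 0.637 and 9 were below 0, all of them pairs with Lep. Adipoq, Fabp4, Car3, Cd36 and Retn had correlations of at least 0.849 with each other there. Plin4 and Cidec correlated with Adipoq at 0.32 and 0.48 in those 7 arrays, against 0.81 and 0.82 in all 8. Within batch 1 the 45 correlations ran from 0.782 to 0.999 and within batch 2 from -0.994 to 1.00, each over 4 arrays.

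**Figure D4:**
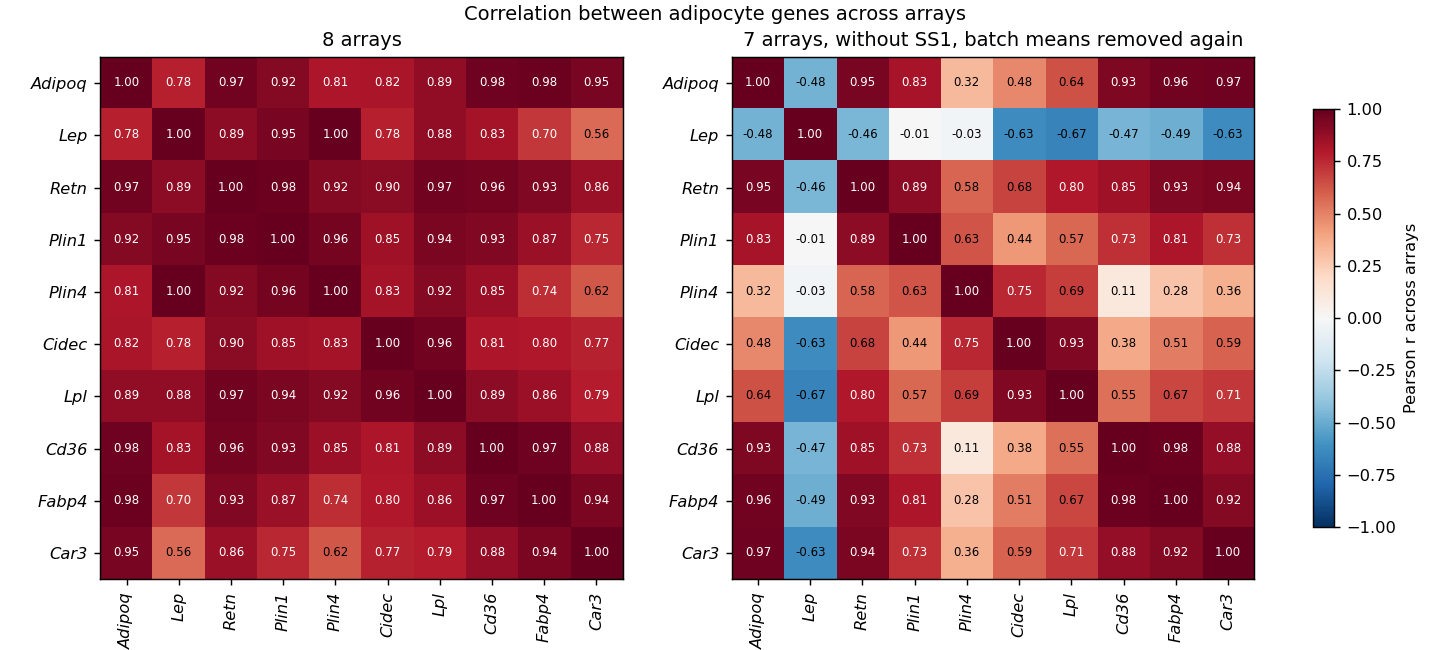
Pearson correlation across arrays for each pair of adipocyte genes, on a colour scale from -1 to 1, over all 8 arrays on the left and without SS1, with batch means removed again, on the right. On the left no pair is below 0.56, and on the right Lep is below 0 with each other gene while Adipoq, Retn, Cd36, Fabp4 and Car3 stay at 0.849 or more with each other.

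Fabp4 and Cd36 showed the largest excess of AA3 over SS3. AA3 lay above SS3 by 0.84 in Fabp4 and by 0.71 in Cd36, whereas AA3 minus SS3 was 0.24 in Adipoq, -0.07 in Retn, -0.07 in Plin1 and -0.04 in Cidec. Macrophages also express both genes, and the mean of 14 macrophage genes stood at 0.97 in AA3 and -0.36 in SS3 relative to its mean over the arrays. The corresponding list means of 14 blood endothelial genes were 0.09 and -0.01, and those of 12 mesothelial genes 1.06 and -0.36. The macrophage list held 13 of 14 genes higher in AA, beside 52.2% of all genes, with list means of 7.60 to 8.82 in AA and 7.33 to 8.19 in SS. The part of these cells in the values of Fabp4 and Cd36 was not tested. Lpl, which macrophages also make, went the other way, with AA3 minus SS3 at -0.29, the lowest of the 10 genes. Car3 differed between these 2 arrays by 0.26, Plin4 by -0.03 and Lep by -0.01.

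The promoters of the genes are shown because the genes varied together, with the letters of known binding sites that lie in them. Windows from 250 bases before to 50 bases after the start of transcription came from RefSeq (GRCm38.p6) and were found for 7 of the 10 genes, with 2 starts for Cidec, and Lpl, Fabp4 and Car3 had no entry. A C/EBP site was searched as TTGCNNAA, the PPAR element by its direct repeat consensus, the CCAAT box as CCAAT and the TATA box as TATAAA, on both strands, and no 2 of these motifs overlapped in the windows printed. Capitals mark matches to C/EBP or CCAAT. The windows are Lep at chr6:29059971-29060270 on the plus strand, Plin1 at chr7:79732727-79733026 and the second Cidec start at chr6:113434715-113435014 on the minus strand, and Adipoq at chr16:23146286-23146585 on the plus strand, each written 5′ to 3′ along its gene.
Lep: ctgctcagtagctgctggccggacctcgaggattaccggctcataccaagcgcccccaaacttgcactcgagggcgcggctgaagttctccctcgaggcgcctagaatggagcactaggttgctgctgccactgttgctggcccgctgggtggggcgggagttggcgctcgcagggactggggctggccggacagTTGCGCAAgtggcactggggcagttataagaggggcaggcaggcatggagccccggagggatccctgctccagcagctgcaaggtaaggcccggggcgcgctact
Plin1: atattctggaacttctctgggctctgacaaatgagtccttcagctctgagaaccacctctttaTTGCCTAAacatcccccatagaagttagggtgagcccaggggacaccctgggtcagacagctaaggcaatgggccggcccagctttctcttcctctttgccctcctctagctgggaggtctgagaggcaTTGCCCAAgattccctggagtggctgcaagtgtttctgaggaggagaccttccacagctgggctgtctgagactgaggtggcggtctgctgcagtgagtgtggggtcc
Cidec: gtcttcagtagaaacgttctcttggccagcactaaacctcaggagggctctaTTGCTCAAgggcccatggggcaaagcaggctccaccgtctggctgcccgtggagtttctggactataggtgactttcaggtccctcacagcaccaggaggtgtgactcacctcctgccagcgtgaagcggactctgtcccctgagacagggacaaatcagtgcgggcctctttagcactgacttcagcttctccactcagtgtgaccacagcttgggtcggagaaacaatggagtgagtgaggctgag
Adipoq: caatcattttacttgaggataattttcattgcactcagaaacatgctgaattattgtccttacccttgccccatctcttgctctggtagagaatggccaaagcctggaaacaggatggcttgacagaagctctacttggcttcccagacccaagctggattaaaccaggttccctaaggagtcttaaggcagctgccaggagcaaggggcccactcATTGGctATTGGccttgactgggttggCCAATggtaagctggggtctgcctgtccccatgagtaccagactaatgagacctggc
Lep held 1 C/EBP match, TTGCGCAA, beginning at -55 from the start. Plin1 held 2, TTGCCTAA and TTGCCCAA, beginning at -187 and -58, and Cidec held TTGCTCAA at -198. Thus 3 of the 8 windows, from 3 of the 7 genes, had a C/EBP match, and 10.8% of the 32851 promoter windows of all genes did. A CCAAT box occurred in 3 of the 8 windows, those of Adipoq, Cd36 and Plin4, and in 37.4% of all windows. Adipoq held 3, beginning at -34, -27 and -7. The PPAR element matched none of the 8 windows, and matched 0.381% of all windows, and TATAAA matched none either (13.6%).

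Other genes of fat cells, from a list of 23 with 20 measured, followed the same order of arrays less closely. SS1 was the highest array in 17 of the 20, or 85.0%, beside 16.6% of all genes and 39.9% of the 4539 probe sets with the lowest levels. Correlations above 0.7 with the mean of the 10 adipocyte genes were found in 12 of the 20, beside 6.26% of all genes. The median correlation of the 20 with that mean was 0.812, and only 0.361 without SS1. In those 4539 dim probe sets the median correlation with that mean was 0.329. In AA 17 of the 20 were lower, beside 47.8% of all genes, with a median difference of -0.30. Of the 20, 0 had an unadjusted or adjusted p under 0.05 in limma (2.29% of genes were lower at the unadjusted threshold). The batch medians were -0.57 (batch 1) and 0.03 (batch 2). Without SS1 12 of the 20 were lower, with a median of -0.06. Gpd1, which makes the glycerol backbone of triglyceride, had a correlation of 0.98 with the 10 genes and 0.96 without SS1. The difference for Gpd1 was -0.54 ± 0.30 (SE), with an adjusted p of 0.706 in limma. Apoc1, an apolipoprotein, correlated at 0.98 and 0.92 without SS1, and Orm1 and Slc36a2 at 0.92 and 0.92, which were 0.66 and 0.65 without SS1.

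Transcription factors of fat cell differentiation had a median difference of -0.06 over 14 genes, with 11 lower (78.6%, beside 47.8% of all genes). Of these, 2 were lower at an unadjusted p under 0.05 (14.3%, beside 2.29% of all genes) and 0 had an adjusted one in limma. Ppargc1a, a coactivator of mitochondrial and fasting genes that epithelium and muscle also express, differed by -0.53 ± 0.17 (SE) and Klf5, a factor also high in crypt epithelium, by -0.34 ± 0.12 (SE). These 2 correlated with the mean of the 10 genes at only 0.10 and 0.37. Ebf1, an early adipogenic factor also used by B cells, correlated at 0.93, Cebpa at 0.81, and Ebf2 and Stat5a at 0.66 and -0.54. Without SS1 Ebf1 stood at 0.78, but Cebpa at 0.09, Ebf2 at -0.13 and Stat5a at -0.10. Pparg, which encodes PPAR gamma and is named here after its values were seen, correlated at -0.20 (-0.28 without SS1). The difference for Pparg was -0.0054 ± 0.20 (SE). Over the 14 genes the median correlation was 0.243, and 0.079 without SS1. Lipolysis and droplet genes outside the 10 were lower in 7 of 12 (58.3%, near the 47.8% of all genes), median -0.02. Of the 12, 0 passed an unadjusted p of 0.05 or an adjusted one in limma. In that list Lipe, hormone-sensitive lipase, went with the 10 genes at a correlation of 0.92, and Hilpda, a lipid droplet protein of hypoxic cells, at 0.79. Without SS1 the correlation was 0.68 for Lipe and 0.25 for Hilpda. Plin3 and Cideb, a perilipin and a CIDE protein made by many cell types including epithelium, went against the 10 genes at -0.89 and -0.84 (-0.62 and -0.44 without SS1).

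Genes of fatty acid and triglyceride synthesis had a lower median in both batches and 6 genes past the unadjusted threshold. Of 14 measured genes 10 (71.4%) were lower in AA, beside 47.8% of all genes, the median being -0.35 (batch 1 -0.42, batch 2 -0.24). Those 6 genes were 42.9% of the 14, beside 2.29% of all genes. None had an adjusted p under 0.05 in limma. Fasn, fatty acid synthase, stood at 7.88, 8.14, 9.83 and 8.30 in AA1, AA2, SS1 and SS2 and at 8.13, 8.48, 8.74 and 8.80 in AA3, AA4, SS3 and SS4. Every AA array of a batch lay below every SS array of it, and the difference was -0.76 ± 0.29 (SE) with an adjusted p of 0.556 in limma. Lpin1, which makes diacylglycerol, differed by -0.40 ± 0.11 (SE), Acaca, acetyl-CoA carboxylase, by -0.46 ± 0.19 (SE), Acly, ATP citrate lyase, by -0.38 ± 0.16 (SE), Scd2, a desaturase, by -0.54 ± 0.22 (SE) and Gpam, the first acyltransferase of glycerolipid synthesis, by -0.29 ± 0.12 (SE). These differences were of one sign in both batches, unlike those of Fabp4, Cd36 and Lep. Without SS1 the list had 11 of 14 lower, a median of -0.16 and 2 genes at an unadjusted p under 0.05 (14.3%, beside 5.58% of all genes), Fasn and Lpin1. Scd1, another desaturase high in fat, followed the 10 genes instead, at a correlation of 0.95, with -1.79 in batch 1 and -0.10 in batch 2.

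Markers of brown and beige fat showed no common direction. Of 10 measured genes 4 were lower (40%, beside 47.8% of all genes), with a median of 0.01. Ucp1, the uncoupling protein that defines brown fat, differed by -0.19 ± 0.13 (SE). Ppargc1a, lower in AA, was the 1 gene of that list at an unadjusted p under 0.05 in limma (10%, beside 2.29% of all genes). Ucp1 correlated with the mean of the 10 genes at 0.78, Cox8b at 0.69, Dio2 at 0.39 and Cox7a1 at -0.88. Without SS1 these correlations were -0.08, -0.28, 0.23 and -0.46. Genes of fat stroma and preadipocytes lay on the other side, with 9 of 12 higher in AA, beside 52.2% of all genes, and a median of 0.22 (0.29 without SS1). Of these Pi16 and Cd34, surface genes of adventitial progenitors, differed by 0.56 ± 0.17 (SE) and 0.53 ± 0.20 (SE) and Pdgfra by 0.32 ± 0.14 (SE), all 3 at an unadjusted p under 0.05, where 5.67% of all genes were higher, and none at an adjusted one in limma. Their correlations with the mean of the 10 genes were -0.0016, 0.21 and 0.07. In the same list Dlk1, Dact2, Dpp4 and Icam1 correlated at -0.65, -0.47, 0.41 and 0.37. General fibroblast and matrix genes, a list that also holds Pdgfra, were higher in AA in 14 of 14 (median 0.60), 12 of them past the unadjusted threshold. The part of fibroblasts at large in the values of Pi16, Cd34 and Pdgfra was not tested.

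Paralogs of the 10 genes, many of them made by gut epithelium, mostly lay on the other side. Of 27 measured paralogs 7 (25.9%) were lower in AA, beside 47.8% of all genes. Their median difference was 0.11 and their median correlation with the mean of the 10 genes -0.29. The correlation was above 0.7 in 2 of the 27, Fabp7 (0.81, and 0.55 without SS1) and Retnla (0.73, and -0.10 without SS1), which are named here after their values were seen. Retnla, a resistin-like protein of macrophages, differed by -0.90 in batch 1 and 0.26 in batch 2. Car9, Plin3 and Cideb had the opposite sign, at -0.86, -0.89 and -0.84, and at -0.49, -0.62 and -0.44 without SS1. Car4 and Car13, carbonic anhydrases of colonocytes, differed by 0.26 ± 0.10 (SE) and 0.36 ± 0.12 (SE) where Car3 differed by -1.77. C1qtnf3, a secreted relative of adiponectin, differed by 0.39 ± 0.16 (SE). These 3 of the 27 were higher at an unadjusted p under 0.05, as were 5.67% of all genes, and none had an adjusted one in limma. Of 12 measured receptors of adipokines and partners of lipoprotein lipase, 10 were higher, beside 52.2% of all genes, with a median of 0.06. Cap1, a binding partner of resistin in human cells, was the 1 of the 12 at an unadjusted p under 0.05 in limma, at 0.19 ± 0.08 (SE). At that threshold 5.67% of all genes were higher. Lepr, the leptin receptor, differed by 0.09 ± 0.14 (SE). Gpihbp1, which carries lipoprotein lipase to the capillary wall, correlated with the 10 genes at 0.70, Lepr at -0.64, Tlr4 at -0.67 and Cap1 at -0.74. Without SS1 the correlations of Gpihbp1 and Tlr4 changed sign, to -0.26 and 0.45, and Lepr and Cap1 stood at -0.23 and -0.39.

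**Figure D5:**
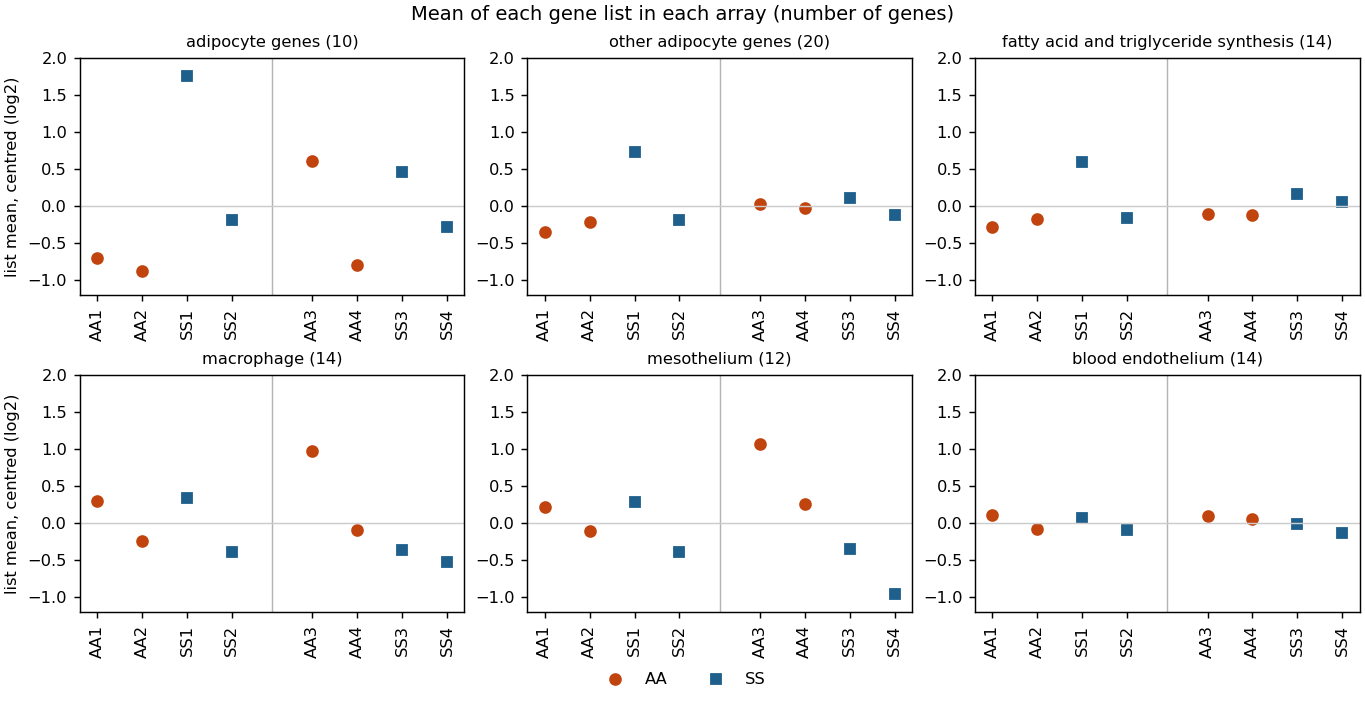
Mean log2 value of each gene list in each array (x axis), centred on its mean over the 8 arrays (y axis), with AA as circles and SS as squares, batch 1 left of the grey line and batch 2 right of it. SS1 stands highest for the adipocyte genes (1.75), other adipocyte genes (0.74) and fatty acid synthesis (0.60), while AA3 is the highest for the macrophage (0.97) and mesothelial (1.06) lists.

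The array that was highest in the 10 genes also differed in dim and bright probe sets as a whole. Among the 4539 probe sets with the lowest levels SS1 lay 0.11 above the probe set mean in the median and was the highest array in 39.9%, and among the 4539 brightest it lay at -0.16 and was the highest in 3.08%. The mean of 15 colon epithelium genes was lowest in SS1, at -0.20 relative to its mean, with list means of 11.87 to 11.98 in AA and 11.67 to 11.91 in SS. The part of this shift in the adipocyte genes was not tested.

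The genes whose pattern was most like that of the 10, by Pearson correlation with their mean over the 8 arrays, were led by Abcd2, a peroxisomal transporter of very long-chain fatty acids that is high in fat, at 0.99. Gm7982, Gpd1, Vmn1r42, 4930447A16Rik, Mug2, Krtap6-3, Olfr1255, Olfr1120, Apoc1, Prss46, Tpbpa, Olfr911-ps1, Fmo4 and Olfr270 followed, at 0.96 or more. All 15 were below the median level of the array, and 2 of them had an SD above the 95th percentile, Abcd2 and Gpd1. At the opposite end Endov, Socs2, Rab40c, Tm2d2, Sbf1, Tacc3, Coa3 and Ascc2 had correlations of -0.99 to -0.97, with SDs of 0.14 to 0.33. Of 16635 genes outside the 10, 116 (0.697%) correlated above 0.9.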

How the data were processed

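Total RNA of 8 distal colon samples (4 AA, 4 SS) was labelled and hybridised, 1 sample per array. Per the submitters' processing notes, the authors used RMA, with Affymetrix Power Tools and Partek 6.4 named, and deposited log2 values per probe set; the annotation release, the filters and the step that equalised batch means are not given in the sources used. The authors also deposited a table of raised gene sets which, per the file headers, gives an enrichment score, a nominal p-value and a q-value for each set; its count of enriched genes is quoted as deposited.

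Of 23442 probe sets, 18154 had 1 gene symbol in the platform annotation, 1559 had several and were not named, and 3729 were unnamed here. Entrez identifiers of 18092 matched RefSeq, which changed 0 symbols. Group differences come from limma 3.58.1 in R 4.3.3 (lmFit and eBayes with batch and group as terms, 5 residual degrees of freedom), adjusted by Benjamini-Hochberg over all 18154 probe sets, threshold 0.05, with no filter. A second fit held a group by batch term. Lists used the probe set with the highest mean per gene; 270 of 303 entries of 21 lists were measured, and some genes stand in more than 1 list. Correlations used exact permutations. The fits were tested on simulated data. Precision is limited by the number of arrays.

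The members, lists and tests were chosen with earlier results of these data known. Named were all 10 genes, the list genes at an unadjusted p under 0.05, the 4 of each list with the highest absolute correlation with the mean of the 10, and the 15 highest and 8 lowest genes by that correlation. Of the lists of other cell types and of sterol and oxidation genes, whose genes met the same rule, only examples or counts are printed, and those examples were picked after their values were seen. Lists not described in the report had these median differences: lymphatic endothelium 0.24, mast cell -0.04, nerve and Schwann 0.10, sterol synthesis -0.11 and fatty acid oxidation 0.06. Those of lists described by counts or list means were smooth muscle 0.38, B cell and follicle -0.39, blood endothelium 0.10, mesothelium 0.72, macrophage 0.47 and colon epithelium 0.07. Alternatives tried were a replicate block, leaving out the batch term, a level filter, all probe sets, quantile normalization, median centring, trend with robust variance, array weights, single arrays left out and single batches.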

Additional observations from a re-analysis of the deposited data

How the results depend on the processing

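The median difference of the 10 genes stayed below 0 under all alternatives run, from -1.74 in batch 1 alone to -0.09 in batch 2 alone. It was -0.25 with array weights, which gave SS1 a weight of 0.273 and SS2 one of 11.5, -0.54 without Cd36, Lpl and Fabp4, and -0.22 to -1.31 with single arrays left out. In batch 2 alone, with 2 arrays a group, Fabp4 (0.14), Cd36 (0.19) and Lep (0.013) turned in sign; the cause was not tested. The other 173 of 176 single-gene values under alternatives kept sign and call, and the smallest adjusted p among them was 0.2998 in limma. Probe sets past the threshold numbered 0 in each setting but array weights, with 177 (0 of the 10 genes). Unadjusted counts ran from 585 to 1602 higher and 252 to 1408 lower, the 252 being under the level filter with 9077 probe sets tested. The group by batch term called 0 probe sets with quantile normalization and with trend and robust variance too. The median correlation between the genes was 0.79 by Spearman, 0.72 to 0.92 with single arrays left out, 0.64 without SS1 with batch means removed again, 0.97 in batch 1 and 0.87 in batch 2. Deviations of same-numbered AA and SS arrays correlated at -0.441 to -0.0929, and none correlated best with its own number. Equal batch means push correlations between AA and SS arrays of one batch down. These values therefore cannot decide whether same-numbered arrays were pairs. With the replicate block 0 probe sets passed and 3 of the 10 genes had an unadjusted p under 0.05 in limma, with a smallest adjusted p of 0.446 and the median of -0.87. Unadjusted counts under the block were 875 higher and 369 lower, against 977 and 490, and the block was not run for the group by batch term or the correlations. Alternatives with arrays left out jointly, batch means removed again and pairings within batches were chosen after seeing the data.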

Other observations

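Among the 791 genes outside the 10 with an SD above the 95th percentile, a limit chosen after the data were seen, 13 (1.64%) correlated above 0.9 with the mean of the 10 genes. The 12 highest were Abcd2, Gpd1, Adhfe1, Cyp2e1, Amy1, Scd1, Orm1, Slc36a2, Lipe, 1700024J04Rik, Inmt and Pon1. Cyp2e1, a cytochrome P450 of liver that fat also expresses, averaged 6.79 ± 1.37 (SD, n = 4) for AA and 8.33 ± 1.11 (SD, n = 4) for SS, with a correlation of 0.96 that was 0.96 without SS1. Its differences were -2.41 in batch 1 and -0.67 in batch 2, and its adjusted p was 0.640 in limma. Inmt, an indolethylamine methyltransferase, differed by -1.24 ± 0.31 (SE), with both AA arrays below both SS arrays in each batch and an adjusted p of 0.321 in limma. Inmt stood at 6.56, 6.69, 8.90 and 7.86 in AA1, AA2, SS1 and SS2 and at 7.67, 6.60, 8.05 and 7.69 in AA3, AA4, SS3 and SS4.

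The authors' deposited table of 266 gene sets raised in AA held 7 with ADIP in the name, 5 of which end in DN. The highest enrichment scores among the 7 in the authors' deposited table were 2.26 for ADIP_DIFF_CLUSTER2, with 38 enriched genes, and 2.13 for ADIP_DIFF_CLUSTER1, with 54, whose names give no direction. The 5 that end in DN scored from 1.99 (ADIP_VS_FIBRO_DN, 26 enriched genes) to 2.12 (IRS_KO_ADIP_DN, 34) in the authors' deposited table. The table holds names of sets and not their genes, so whether any of the 10 genes belongs to them was not tested.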
